A study of Mus musculus with 12 samples.

Results

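The comparison described here sets the 9A1 line against the 14B3 line after 5 days of aggregate culture. Both are bipotential mouse embryonic liver (BMEL) lines, isolated independently from fetal liver of embryos at day 14 post coitum, whose parents were CBA/J and C57Bl/6J mice. Members were the 4 arrays whose titles name day 5 aggregate culture and 1 of the lines, of 12 arrays in the series. The compared groups were 9A1 after 5 days as aggregates (2 arrays) and 14B3 after 5 days as aggregates (2 arrays). No allele, transgene or added agent is named in the labels, and the 2 lines share the same culture. Each line is a single isolate, so the differences below belong to these isolates. The other 8 arrays hold the same lines in basal culture and after 1 day as aggregates. The replicates are called biological in the design text, with no word on which cultures they came from, so the p-values measure the spread between these arrays.

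BMEL cells are immortal epithelial cells that can be steered in culture towards hepatocytes or bile duct cells. When such cells are lifted from the dish and kept as floating clusters they stop spreading and take up liver functions. Fetal liver comes from the foregut endoderm, which also gives rise to stomach and intestine, and absorptive gut cells share with hepatocytes much of the machinery for handling lipids, bile acids and foreign compounds.

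Levels are the deposited log2 probe set values, and a difference is the 9A1 mean minus the 14B3 mean on that scale, given ± its standard error from limma. Array medians lay between 6.11 and 6.12. The first principal component of the 4 arrays held 65.99% of the variance and separated the lines, and the second, with 27.72%, separated the 9A1 replicates. The 9A1 replicates differed by an SD of 0.402 and the 14B3 replicates by 0.197, and 467 genes lay at least 2-fold apart between the 9A1 arrays against 46 between the 14B3 arrays. A level of 5 was the floor used for testing, since the values carry no detection calls, and below it the size of a difference is limited by background. With 2 arrays a line, precision is limited throughout by that number.

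Outside day 5, 2 arrays went against their labels. The arrays labelled basal 9A1 replicate 1 and day 1 9A1 replicate 2 had Xist levels of 12.13 and 12.25 and Eif2s3y levels of 3.88 and 3.75. The other basal and day 1 9A1 arrays had Xist at 6.69 and 6.40 and Eif2s3y at 9.83 and 9.81, while the basal and day 1 14B3 arrays had Xist between 11.62 and 12.61 and Eif2s3y between 3.46 and 4.05. Of the 279 genes called at day 5, the array labelled basal 9A1 replicate 1 lay nearer to 14B3 for 191 and to 9A1 for 88. The array labelled day 1 9A1 replicate 2 lay nearer to 14B3 for 223 and to 9A1 for 56. The same count over all genes tested was not made. The array labelled basal 9A1 replicate 1 did not match basal 14B3 for every gene. Sox17 lay at 11.60 on it, against 9.13 and 9.47 in basal 14B3, and Enpep at 6.39, against 4.28 and 4.25. The day 5 comparison does not use those 2 arrays, and results on basal and day 1 culture are given with and without them.

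**Figure D1:**
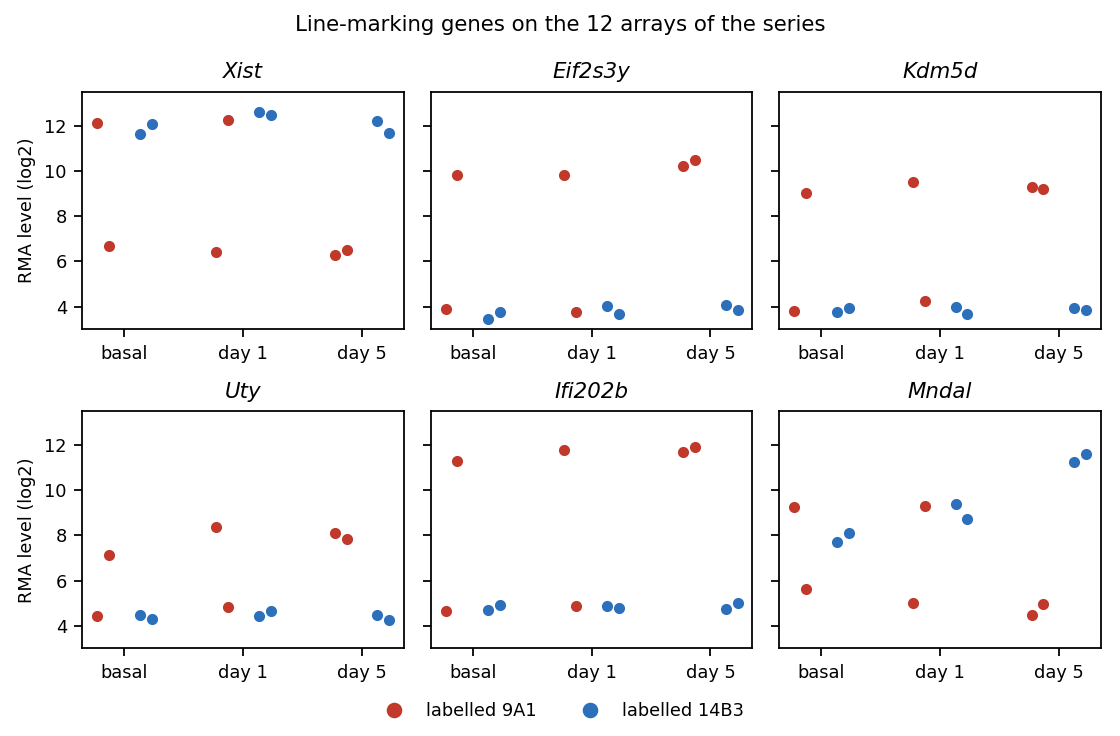
Levels (log2) of 6 genes on the 12 arrays, by culture, with arrays labelled 9A1 in red and left of arrays labelled 14B3 in blue. At day 5 the colours separate for all 6 genes. In basal and day 1 culture 1 array labelled 9A1 lies with 14B3 each time, for example at an Xist level of 12.13 in basal culture.

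Of 15199 genes tested, limma called 279 between the lines, or 1.84%, at an adjusted p under 0.05. Of these 169 were higher in 9A1 (1.11% of genes tested) and 110 were lower (0.724%). Differences of at least 2-fold were seen for 509 genes, or 3.35%, and 235 genes were both called and at least 2-fold. The 2 arrays of each line did not overlap for 6846 genes, which is 45% of those tested. An exact permutation of 2 arrays against 2 cannot give a two-sided p below 0.333, so each call leans on the spread shared across genes. At an unadjusted p under 0.05 there were 2093 genes, or 13.8% of those tested. Of the called genes 17 higher in 9A1 had a 14B3 mean under the floor and 9 lower in 9A1 had a 9A1 mean under it, so they passed the filter through the high line and the size of their difference is limited by background. Among genes named below these were Ifi202b, Eif2s3y, Kdm5d, Uty, Tmem267, H2-Q2, Tspan12, Pdk4, Slc10a2 and Slc5a8, higher in 9A1, and Mndal, Nepn, Gstt2, Pon3, Arg1 and Itgb8, lower in 9A1. The number of calls depended on which array was left out. Leaving out 1 array leaves a line with a single array, so the spread then comes from the pair of the other line alone and the lone array is assumed to vary like that pair. Without 14B3 replicate 1 the number of calls was 63 and without 14B3 replicate 2 it was 39, while without 9A1 replicate 1 it was 2012 and without 9A1 replicate 2 it was 1250. Of the 279 genes, 39 passed with any 1 array left out, 224 missed the threshold without 14B3 replicate 1 and 240 without 14B3 replicate 2, and 0 missed it without either 9A1 array. Passing without a 9A1 array rests on the closer 14B3 pair and is no sign of stability. Of 29 genes named by rule that were called and had another probe set above the floor, 18 had one more than 1.5-fold away from the value used and 1, Tpm2, had one of opposite sign.

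The line difference covered the sex chromosomes. Xist, the RNA that coats the inactive X chromosome in female cells, lay at 6.30 and 6.51 on the 9A1 arrays and at 12.22 and 11.66 on the 14B3 arrays. That is a difference of -5.53 ± 0.21 (adjusted p = 0.00240). Eif2s3y, a translation factor gene of the Y chromosome, lay at 10.22 and 10.50 in 9A1 and at 4.06 and 3.87 in 14B3, a difference of 6.40 ± 0.16 (adjusted p = 0.000857). The 2 lines were far apart for both genes, with Xist low and Eif2s3y high in 9A1 and the opposite in 14B3. Kdm5d and Uty, Y-linked genes for histone demethylases, differed by 5.34 ± 0.12 and 3.60 ± 0.15, and all 3 Y-linked genes passed with any 1 array left out. The other 2 Y-linked genes of the list were not called. Sry, the testis-determining gene, lay at 7.24 and 7.53 in 9A1 and at 7.24 and 7.17 in 14B3 (adjusted p = 0.698). Usp9y lay between 4.92 and 5.27 on all 4 arrays (adjusted p = 0.789). Second probe sets above the floor gave smaller differences for Eif2s3y (1.95) and Kdm5d (1.35), and the other probe sets gave 1.26 to 4.59 for Uty and -7.44 to -3.51 for Xist. The labels give no sex, and sex and line cannot be told apart here.

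On the X chromosome 7 of 459 tested genes were higher in 9A1 and 13 were lower, so 4.36% were called. Chic1, next to Xist in the order of tested genes, was lower by 1.41 ± 0.19 and Ftx, an RNA gene of the X-inactivation centre, lower by 1.10 ± 0.13. Eif2s3x, the X-linked partner of Eif2s3y, lay at 10.79 and 10.76 in 9A1 and at 11.49 and 11.45 in 14B3, a difference of -0.69 ± 0.08 (adjusted p = 0.0334). Of 12 tested genes known to escape X inactivation, Ftx and Eif2s3x were the 2 called, the median difference was -0.14, and 2 were positive. Both calls missed the threshold without 14B3 replicate 1 or replicate 2 (adjusted p from 0.233 to 0.375), and so did Chic1 (0.280 and 0.305).

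**Figure D2:**
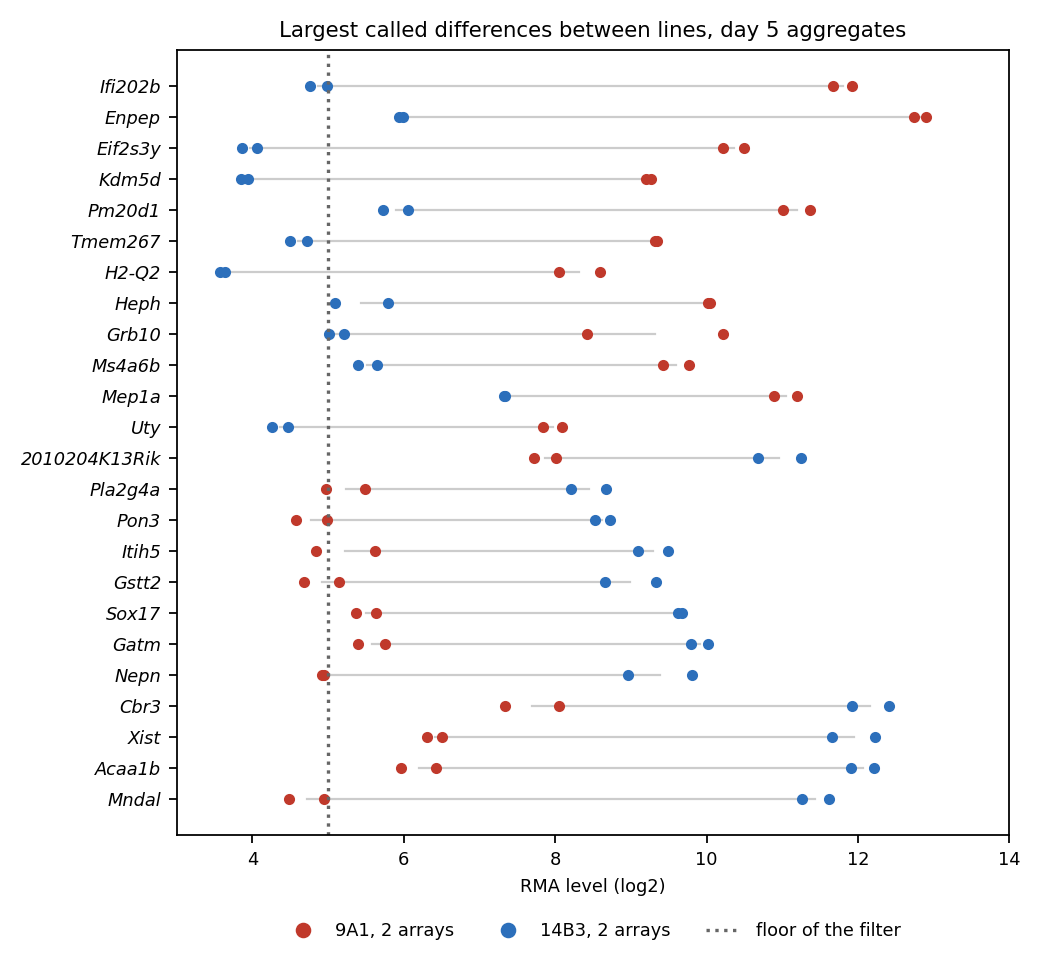
Level (log2) on each array of the 12 genes with the largest called differences in each direction, ordered by difference, with 9A1 arrays in red, 14B3 arrays in blue and the floor of 5 dotted. The 2 arrays of a line lie close together for nearly every gene, with the widest 9A1 gap at Grb10 (10.22 and 8.42).

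The largest differences in each direction were in 2 members of 1 gene family. Ifi202b and Mndal encode interferon-inducible proteins with DNA-binding HIN domains, and both lie on chromosome 1 (GRCm38), Ifi202b from 173962569 to 173982844 and Mndal from 173857215 to 173880382. Ifi202b lay at 11.67 and 11.93 in 9A1 and at 4.76 and 4.99 in 14B3, a difference of 6.92 ± 0.15 (adjusted p = 0.000768). Mndal lay at 4.48 and 4.95 in 9A1 and at 11.26 and 11.62 in 14B3, a difference of -6.72 ± 0.22 (adjusted p = 0.00175). The 2 genes were thus high in opposite lines, and in each case the low line lay under the floor of 5. Ifi202b was read from its only probe set, while the other probe set of Mndal gave -6.92. Related genes of this family can share probes, and the part of such sharing was not tested. Ifi202b is known for expression that differs between inbred mouse strains. Aim2, a cytosolic DNA sensor of the same family from 173349547 to 173466040, was lower by 1.97 ± 0.13 (adjusted p = 0.00737). It is named because of its position, after its value was seen, and it missed the threshold without 14B3 replicate 1 (adjusted p = 0.0685) or replicate 2 (0.0806).

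Enpep, the brush border enzyme glutamyl aminopeptidase, lay at 12.75 and 12.89 in 9A1 and at 5.99 and 5.94 in 14B3, a difference of 6.86 ± 0.11 (adjusted p = 0.000322). It was near the top of the scale in 9A1 and close to the floor in 14B3. Pm20d1, a secreted enzyme that joins fatty acids to amino acids, was higher by 5.30 ± 0.19, and Tmem267 by 4.72 ± 0.14. Heph, the ferroxidase hephaestin that helps iron leave enterocytes, lay at 10.02 and 10.04 in 9A1 and at 5.79 and 5.09 in 14B3 (4.59 ± 0.25, adjusted p = 0.00444). H2-Q2, a class Ib histocompatibility gene, lay at 8.05 and 8.59 in 9A1 and at 3.58 and 3.64 in 14B3, under the floor. Probe sets of this family can hybridise with relatives. Ms4a6b, a membrane-spanning protein gene, was higher by 4.07 ± 0.18, but by 1.99 with its other probe set. Grb10, an imprinted adaptor that restrains insulin signalling, lay at 10.22 and 8.42 in 9A1 and at 5.01 and 5.21 in 14B3 (4.21 ± 0.59, adjusted p = 0.0492). Its other probe sets gave 0.56 and 1.59, and its call was lost without 14B3 replicate 1 (adjusted p = 0.194) or replicate 2 (0.211). The other genes of this paragraph passed with any 1 array left out.

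Genes lower in 9A1 were led, after Mndal, by Acaa1b, a thiolase of fatty acid oxidation in peroxisomes. It lay at 6.43 and 5.97 in 9A1 and at 12.22 and 11.91 in 14B3, a difference of -5.86 ± 0.20 (adjusted p = 0.00182). Cbr3, a carbonyl reductase, was lower by 4.47 ± 0.29, Nepn, the secreted protein nephrocan, by 4.45 ± 0.29, and Gatm, the first enzyme of creatine synthesis, by 4.33 ± 0.18. Sox17, a transcription factor of definitive endoderm, fetal biliary progenitors and endothelium, lay at 5.37 and 5.63 in 9A1 and at 9.67 and 9.62 in 14B3 (-4.15 ± 0.14, adjusted p = 0.00182), and its other probe set gave -6.70. The glutathione transferase gene Gstt2 was lower by 4.08 ± 0.29, the paraoxonase gene Pon3 by 3.84 ± 0.19 and 2010204K13Rik, an X-linked gene, by 3.10 ± 0.22. Itih5, of the inter-alpha-trypsin inhibitor family, was lower by 4.06 ± 0.30, with -1.94 and -1.38 from its other probe sets, and Pla2g4a, the phospholipase that releases arachidonic acid, was lower by 3.21 ± 0.25. Without 14B3 replicate 1 Itih5 missed the threshold (adjusted p = 0.0515), and without 14B3 replicate 2 both Itih5 (0.0543) and Pla2g4a (0.0650) missed it, whereas the others of this paragraph passed with any 1 array left out.

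Genes of absorptive gut epithelium differed in 1 direction among those called. Of 48 tested members 7 were higher in 9A1 and 0 lower, against 1.11% and 0.724% of all genes, and the median difference was 0.25 against -0.01 over all genes. The list as a whole leaned the same way. Of the 48, 35 had a positive difference, and 11 were at least 2-fold higher against 0 lower. In limma 21 had an unadjusted p under 0.05, against 13.8% of all genes. The 7 were brush border and digestive genes: Enpep, Mep1a, Dpp4, Lct, Amn, Mep1b and Mogat2, of which the last 4 are named after their values were seen. Mep1a, the protease subunit meprin alpha, lay at 10.89 and 11.20 in 9A1 and at 7.33 and 7.34 in 14B3 (3.71 ± 0.14, adjusted p = 0.00211), and its other probe set gave 4.77. Its partner Mep1b was higher by 1.61 ± 0.11. Dpp4, a peptidase that also degrades incretins, lay at 8.72 and 9.54 in 9A1 and at 6.85 and 6.27 in 14B3 (2.57 ± 0.34, adjusted p = 0.0431), with 0.60 to 2.40 from its other probe sets. The lactase gene Lct lay at 11.59 and 11.32 in 9A1 and at 9.26 and 8.62 in 14B3 (2.51 ± 0.24, adjusted p = 0.0181). Amn, which with cubilin takes up vitamin B12, was higher by 2.31 ± 0.10, and Mogat2, which rebuilds triglycerides in enterocytes, by 0.72 ± 0.10.

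Some other defining genes of the same cells were near equal between the lines. Of these Fabp1, Alpi and Cdh17 are named after their values were seen. Fabp1, the liver and gut fatty acid binding protein, lay at 14.67 and 14.66 in 9A1 and at 14.69 and 14.62 in 14B3. Villin (Vil1) lay at 12.71 and 12.96 in 9A1 and at 12.67 and 12.68 in 14B3 (adjusted p = 0.629), and Cdx2, the intestinal homeobox factor, at 10.47 and 11.20 in 9A1 and at 10.88 and 11.09 in 14B3 (adjusted p = 0.860). The intestinal alkaline phosphatase Alpi and the cadherin Cdh17 differed by -0.12 ± 0.07 and -0.04 ± 0.09. Both lines thus had similar levels of these genes, while the called genes of the list were higher in 9A1. Fewer cells of a type and less RNA per cell cannot be told apart in such bulk samples. The list count was 17 higher and 1 lower without 9A1 replicate 1, 13 and 1 without 9A1 replicate 2, 5 and 0 without 14B3 replicate 1 and 4 and 0 without 14B3 replicate 2. Mep1a, Enpep, Lct and Amn passed with any 1 array left out, while Dpp4, Mep1b and Mogat2 missed it without 14B3 replicate 1 or 2 (adjusted p from 0.0588 to 0.405).

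The gut hormones guanylin and uroguanylin, with their receptor, were higher in 9A1 together. Guca2a, which encodes guanylin, lay at 13.32 and 13.45 in 9A1 and at 10.55 and 10.19 in 14B3, a difference of 3.01 ± 0.14 (adjusted p = 0.00374). Guca2b, which encodes uroguanylin, lay at 10.87 and 10.95 in 9A1 and at 7.72 and 7.76 in 14B3 (3.17 ± 0.10, adjusted p = 0.00174). Both hormones were high in 9A1, and in neither case did the arrays of the lines overlap. Gucy2c, the guanylate cyclase that binds both peptides, lay at 10.55 and 10.72 in 9A1 and at 9.11 and 8.93 in 14B3 (1.62 ± 0.12, adjusted p = 0.00993). The receptor is named after its value was seen, and it missed the threshold without 14B3 replicate 1 (adjusted p = 0.0637) or replicate 2 (0.0970). The hormone genes lie 17136 bases apart on chromosome 4.

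The stomach genes Gkn1 and Gkn2, which encode gastrokines and lie 22450 bases apart on chromosome 6, were also both higher and are named for that reason after their values were seen. Gkn2 lay at 10.60 and 10.26 in 9A1 and at 7.03 and 7.23 in 14B3 (3.30 ± 0.16, adjusted p = 0.00382), and Gkn1 at 8.14 and 7.93 in 9A1 and at 5.82 and 5.95 in 14B3 (2.15 ± 0.14, adjusted p = 0.00737). Gkn1 missed the threshold without 14B3 replicate 1 (adjusted p = 0.0837) or replicate 2 (0.0813). Tff1, the gastric trefoil peptide gene, was higher by 1.90 ± 0.19 and was lost without 14B3 replicate 1 (0.101) or replicate 2 (0.146). Of 29 tested genes of secretory gut epithelium, 3 were higher in 9A1 (Guca2a, Guca2b and Tff1) and 0 lower, with a median of 0.13. The count of higher genes was 7 without 9A1 replicate 1, 5 without 9A1 replicate 2, 3 without 14B3 replicate 1 and 2 without 14B3 replicate 2, with 1 lower without 9A1 replicate 1. Muc2, the goblet cell mucin, lay near the floor on all 4 arrays, between 5.50 and 5.75.

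The promoters of both gene pairs are shown because each pair was higher in 9A1 as neighbours. The windows run from 250 bases before the RefSeq start (GRCm38.p6) to 50 after it. They lie at chr4:119637482-119637781 on the plus strand for Guca2a, chr4:119658896-119659195 on the minus strand for Guca2b, chr6:87350866-87351165 on the minus strand for Gkn1 and chr6:87373115-87373414 on the plus strand for Gkn2. Capitals mark matches on either strand to 2 motifs. The letters AGATAA are a motif bound by GATA factors. The letters GTTAAT are the core of the site of HNF1, a liver and gut factor.
Guca2a: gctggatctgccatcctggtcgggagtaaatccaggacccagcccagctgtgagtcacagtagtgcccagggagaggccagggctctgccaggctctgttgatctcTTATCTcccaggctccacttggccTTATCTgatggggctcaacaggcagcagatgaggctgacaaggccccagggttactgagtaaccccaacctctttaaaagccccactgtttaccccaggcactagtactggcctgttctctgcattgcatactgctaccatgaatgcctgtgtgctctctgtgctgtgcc
Guca2b: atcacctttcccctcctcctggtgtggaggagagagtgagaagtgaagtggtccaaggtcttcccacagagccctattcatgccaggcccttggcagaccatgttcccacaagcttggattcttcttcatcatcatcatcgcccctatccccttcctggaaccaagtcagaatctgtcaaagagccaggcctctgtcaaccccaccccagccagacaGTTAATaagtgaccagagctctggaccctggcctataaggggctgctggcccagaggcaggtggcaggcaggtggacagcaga
Gkn1: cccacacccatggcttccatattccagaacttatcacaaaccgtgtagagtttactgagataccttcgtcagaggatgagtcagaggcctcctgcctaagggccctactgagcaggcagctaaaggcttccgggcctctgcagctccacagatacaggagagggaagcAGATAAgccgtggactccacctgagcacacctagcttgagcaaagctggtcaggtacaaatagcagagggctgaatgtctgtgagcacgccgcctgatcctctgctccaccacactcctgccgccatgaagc
Gkn2: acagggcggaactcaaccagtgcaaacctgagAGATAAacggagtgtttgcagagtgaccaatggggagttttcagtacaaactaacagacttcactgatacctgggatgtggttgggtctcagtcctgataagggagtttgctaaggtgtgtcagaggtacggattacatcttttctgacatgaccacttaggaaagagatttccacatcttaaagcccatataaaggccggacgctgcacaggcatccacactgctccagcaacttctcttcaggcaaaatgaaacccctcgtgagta

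The GATA motif was found 2 times in the Guca2a window and 1 time each in those of Gkn1 and Gkn2, and the HNF1 motif 1 time in that of Guca2b. Of genes with a promoter window, 20 of 133 higher in 9A1 (15%) and 15 of 86 lower (17.4%) had the GATA motif in at least 1 window. The share was 8.56% of all tested genes. Counted by window, which is another measure, the motif was present in 11.2% of all 32851 promoter windows. The HNF1 motif was present for 8.27% of the genes higher and 5.81% of the genes lower, against 5.89% of tested genes and 7.1% of all windows. Also searched was an HNF4 motif, CAAAGTCC, which was present for 2.26% of the genes higher, 0% of those lower and 1.92% of tested genes. These motifs were chosen after the values were seen, and a match is a description of letters. GATA factor genes themselves differed unevenly. Gata5, a factor of gut and heart named after its value was seen, lay at 7.58 and 7.54 in 9A1 and at 5.65 and 5.68 in 14B3 (1.89 ± 0.12, adjusted p = 0.00630). Gata4 differed by -0.66 ± 0.11 (adjusted p = 0.0767) and Gata6 by 0.34 ± 0.10 (0.227). The call of Gata5 was lost without 14B3 replicate 1 (0.0910) or replicate 2 (0.105).

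**Figure D3:**
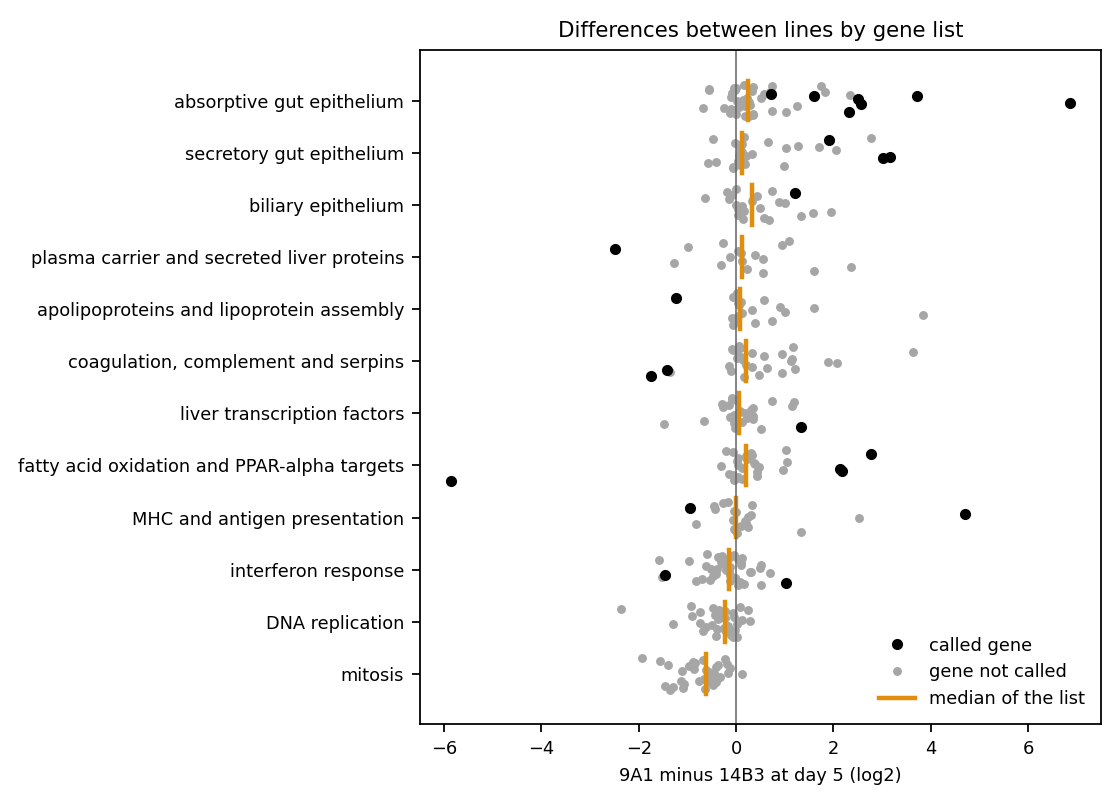
Difference between 9A1 and 14B3 at day 5 (log2) for each tested member of 12 gene lists, with called genes in black, others in grey and the list median in orange. Called members of the gut lists lie right of 0, and the mitosis list lies mostly left of 0, with a median of -0.63, without a called member.

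Plasma proteins, the main export of hepatocytes, showed wide spread within the lines. Albumin (Alb) lay at 14.21 and 11.88 in 9A1 and at 13.63 and 12.01 in 14B3 (adjusted p = 0.947), and the fetal protein gene Afp at 13.69 and 11.73 in 9A1 and at 12.25 and 12.06 in 14B3 (0.784). The 2 arrays of a line lay further apart than the line means for Alb in both lines and for Afp in 9A1. The carrier gene Ttr differed by -0.27 ± 0.28 and Apoa1, the main protein of high density lipoprotein, by -0.06 ± 0.07. Of 17 tested plasma protein genes 1 was called, Itih3, which lay at 5.46 and 5.81 in 9A1 and at 8.37 and 7.88 in 14B3 (-2.49 ± 0.23, adjusted p = 0.0161). The call was lost without 14B3 replicate 1 (0.0825) or replicate 2 (0.0609). The median difference between 9A1 replicates 1 and 2 over this list was 1.22, against 0.32 between those of 14B3. Without 9A1 replicate 1 the list gave 6 lower and 1 higher, without 9A1 replicate 2 it gave 1 lower and 7 higher, and without either 14B3 array it gave 0.

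Of 29 clotting and complement genes 22 had a positive difference, with a median of 0.21, and 7 were at least 2-fold higher against 3 lower, while both called genes were lower in 9A1. They were C9, a subunit of the membrane attack complex (-1.75 ± 0.22), and F12, a clotting factor (-1.43 ± 0.19). Both were lost without 14B3 replicate 1 or replicate 2 (adjusted p from 0.0806 to 0.247). The count was 3 higher and 4 lower without 9A1 replicate 1, 11 higher and 3 lower without 9A1 replicate 2, and 0 without either 14B3 array. Of 20 apolipoprotein and lipoprotein genes 15 had a positive difference, with a median of 0.08, and 3 were at least 2-fold higher against 1 lower. The 1 called was the phospholipid transfer protein gene Pltp, lower by 1.23 ± 0.14 (-1.89 with its other probe set), and it was lost without 14B3 replicate 1 (0.259) or replicate 2 (0.199). The count was 2 higher and 1 lower without 9A1 replicate 1, 5 and 1 without 9A1 replicate 2, and 0 without either 14B3 array.

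Of 25 tested genes of liver metabolism, 2 glucose genes were called higher in 9A1 and 2 urea cycle genes lower, against 1.11% and 0.724% of all genes. Of the 25, 16 had a positive difference, with a median of 0.09. In limma 8 had an unadjusted p under 0.05, against 13.8% of all genes. Cps1, the first urea cycle enzyme, differed by 0.77 in the other direction and was not called. Fbp1, the gluconeogenic fructose bisphosphatase, lay at 9.06 and 8.19 in 9A1 and at 5.79 and 5.49 in 14B3 (2.99 ± 0.31, adjusted p = 0.0237). Pklr, the pyruvate kinase of liver, lay at 12.06 and 12.08 in 9A1 and at 10.60 and 10.58 in 14B3 (1.48 ± 0.08, adjusted p = 0.00444). The replicates of Pklr nearly coincided. Arg1, the last enzyme of the urea cycle, lay at 4.89 and 4.95 in 9A1, under the floor, and at 6.62 and 6.33 in 14B3 (-1.56 ± 0.14, adjusted p = 0.0164). Nags, which makes the activator of the first urea cycle enzyme and was picked out after its value was seen, was lower by 1.36 ± 0.15. Without 14B3 replicate 1 or replicate 2 all 4 were lost (adjusted p from 0.0516 to 0.219) and the list gave 0 and 0, while it gave 6 and 3 without 9A1 replicate 1 and 7 and 2 without 9A1 replicate 2.

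Fatty acid genes leaned higher in 9A1, with Acaa1b a large exception. Of 30 tested genes of fatty acid oxidation and PPAR-alpha targets 3 were higher in 9A1 and 1, Acaa1b, was lower, with a median of 0.21. Over all genes tested 1.11% were called higher and 0.724% lower. Of the 30, 23 had a positive difference, and 5 were at least 2-fold higher against 1 lower. In limma 12 had an unadjusted p under 0.05, against 13.8% of all genes. Pdk4, a kinase that spares glucose by shutting pyruvate dehydrogenase, lay at 7.41 and 6.78 in 9A1 and at 4.27 and 4.36 in 14B3 (2.78 ± 0.23, adjusted p = 0.0130). Acot4, a peroxisomal thioesterase, was higher by 2.17 ± 0.23 (1.33 with its other probe set) and the fatty acid uptake gene Cd36 by 2.13 ± 0.23. Outside the list, Slc27a2, which transports and activates very long chain fatty acids, was higher by 2.10 ± 0.29 and the desaturase gene Scd1 by 2.20 ± 0.15. Cd36 and Scd1 are named after their values were seen. Scd1 lay at 12.54 and 12.93 in 9A1 and at 10.54 and 10.53 in 14B3. Pdk4, Acot4, Slc27a2 and Cd36 missed the threshold without 14B3 replicate 1 or replicate 2 (adjusted p from 0.0641 to 0.294), and Scd1 without replicate 2 (0.0594). The list gave 0 higher and 1 lower without either 14B3 array, 6 and 2 without 9A1 replicate 1 and 7 and 1 without 9A1 replicate 2.

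Drug-metabolising genes were called in both directions, where 1.11% of all genes tested were called higher and 0.724% lower. Of 33 cytochrome P450 genes 1 was higher and 2 were lower. In limma 15 of the 33 had an unadjusted p under 0.05, against 13.8% of all genes, and 18 had a positive difference. Cyp26b1, which breaks down retinoic acid, lay at 6.70 and 7.20 in 9A1 and at 9.47 and 9.27 in 14B3 (-2.42 ± 0.20, adjusted p = 0.0141), Cyp1a2 was lower by 1.42 ± 0.14 and Cyp4b1 higher by 1.29 ± 0.17. Of 37 conjugation genes 2 were higher and 2 lower, the lower ones being Gstt2 and Ephx2. By the same measure 20 of the 37 had an unadjusted p under 0.05, and 20 had a positive difference. Tpmt, which methylates thiopurine drugs, lay at 9.96 on each of the 9A1 arrays and at 7.94 and 8.09 in 14B3 (1.94 ± 0.11, adjusted p = 0.00484), and its other probe sets gave 0.35 to 0.68. Gstm6, a glutathione transferase with close relatives, was higher by 1.65 ± 0.13, and the epoxide hydrolase gene Ephx2, picked out after its value was seen, was lower by 1.19 ± 0.09. Bco1, which cleaves beta-carotene into retinal, was higher by 1.41 ± 0.14. These genes other than Gstt2 missed the threshold without 14B3 replicate 1 or replicate 2 (adjusted p from 0.0515 to 0.357). Without 9A1 replicate 1 and without 9A1 replicate 2 the P450 list gave 11 higher and 4 lower, and 10 and 3, and the conjugation list gave 8 and 9, and 6 and 6. The P450 list gave 0 and 0 without either 14B3 array, and the conjugation list 0 and 1.

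Bile duct genes gave 1 call of 23. Slc10a2, the bile acid transporter of bile ducts and ileum, lay at 5.22 and 5.44 in 9A1 and at 4.28 and 3.97 in 14B3 (1.21 ± 0.15, adjusted p = 0.0363), near the floor, and the call was lost without 14B3 replicate 1 (0.102) or replicate 2 (0.222). Krt19 lay at 13.56 and 13.90 in 9A1 and at 13.78 and 13.69 in 14B3 (adjusted p = 0.992). Epcam lay between 12.88 and 13.24 on the 4 arrays (0.943). Sox9 lay at 8.04 and 6.53 in 9A1 and at 6.81 and 6.30 in 14B3 (0.634). The progenitor surface genes Cd24a and Cd44 varied within 9A1. Cd24a lay at 11.74 and 9.77 in 9A1 and at 10.75 and 10.68 in 14B3 (0.988), and Cd44 at 10.83 and 9.03 in 9A1 and at 9.26 and 9.03 in 14B3 (0.651). Prom1 lay between 5.19 and 5.95 (0.453). The count of higher biliary genes was 6 without 9A1 replicate 1, 8 without 9A1 replicate 2 and 0 without either 14B3 array, with 2 lower without 9A1 replicate 1.

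Of 27 tested liver transcription factors 3 were at least 2-fold higher and 1 at least 2-fold lower, with a median of 0.07, and 8 had an unadjusted p under 0.05. Hnf4a, a main hepatocyte regulator, lay at 12.29 and 12.43 in 9A1 and at 12.43 and 12.54 in 14B3 (adjusted p = 0.642). Of these genes 1 was called, Cebpd, a factor of the acute phase response, which was higher by 1.33 ± 0.12 but by 0.04 with its other probe set, and of 15 gut factors 0 were called. Among gut factors 1 was called higher and 1 lower without 9A1 replicate 1, and 1 lower without 9A1 replicate 2, by the same limma test. In the fit of all 4 arrays 2 of the 15 had an unadjusted p under 0.05. The call of Cebpd was lost without 14B3 replicate 1 (0.178) or replicate 2 (0.179), and the liver list gave 4 higher and 5 lower without 9A1 replicate 1 and 5 and 2 without 9A1 replicate 2. Among signals, Ihh, the gut and cartilage hedgehog ligand, lay at 8.05 and 8.04 in 9A1 and at 9.51 and 9.37 in 14B3 (-1.39 ± 0.11, adjusted p = 0.0125). Lefty1, a nodal antagonist, differed by -1.39 ± 0.12. Both are named after their values were seen and were lost without 14B3 replicate 1 or replicate 2 (0.142 to 0.211). Of 23 TGF-beta and BMP genes 1 was called, the inhibitor Smad6, higher by 0.74 ± 0.10 and lost without either 14B3 array (0.404 and 0.369). The list gave 4 higher and 2 lower without 9A1 replicate 1 and 9 and 1 without 9A1 replicate 2.

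Cell surface and matrix lists gave 1 or 2 calls each, where 1.84% of all genes tested were called. Dsc2, the desmosomal cadherin desmocollin 2, lay at 8.57 and 8.21 in 9A1 and at 11.40 and 11.25 in 14B3 (-2.93 ± 0.15, adjusted p = 0.00431) and Tjp3, a tight junction scaffold, was lower by 0.94 ± 0.13, the 2 calls among 41 claudin and junction genes. The 2 called integrins of 19 were lower in 9A1, namely Itgb6 by 1.30 ± 0.13 and Itgb8 by 1.46 ± 0.17, which form receptors that activate latent TGF-beta. The 2 called matrix genes of 46 were higher. Nid1, the basement membrane linker nidogen, lay at 11.63 and 11.60 in 9A1 and at 8.37 and 8.90 in 14B3 (2.98 ± 0.19, adjusted p = 0.00678), and Col18a1, the precursor of endostatin, was higher by 1.08 ± 0.09. Tspan12, a tetraspanin, was higher by 3.55 ± 0.17, with its 14B3 arrays under the floor, and the tropomyosin gene Tpm2 by 1.68 ± 0.22, though 1 of its other probe sets gave -0.06. Dsc2, Nid1 and Tspan12 passed with any 1 array left out, and Tjp3, Itgb6, Itgb8, Col18a1 and Tpm2 missed it without 14B3 replicate 1 or replicate 2 (adjusted p from 0.0885 to 0.371). Without 9A1 replicate 1 and without replicate 2 the matrix list gave 3 higher and 5 lower, and 9 and 2. The junction list gave 2 and 4, and 8 and 3. Without either 14B3 array the matrix list gave 1 and 0, the junction list 0 and 1 and the integrins 0.

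Immune genes were called in both directions within lists, where 1.11% of all genes tested were called higher and 0.724% lower. Of 42 interferon response genes 1 was higher, the RNA sensor gene Ddx58 (1.03 ± 0.13), and 1 was lower, the GTPase gene Ifi47 (-1.46 ± 0.15). That list leaned lower in 9A1. Only 14 of the 42 had a positive difference, with a median of -0.14, and 3 were at least 2-fold lower against 1 higher. In limma 20 of them had an unadjusted p under 0.05, against 13.8% of all genes. Of 22 genes of antigen presentation H2-Q2 was higher and Psmb8, a subunit of the immunoproteasome, was lower by 0.95 ± 0.13. There 11 of the 22 were positive and 4 had an unadjusted p under 0.05 in limma. H2-K1, a classical class I gene with probes that related genes can share, lay at 11.27 and 12.45 in 9A1 and at 9.48 and 9.17 in 14B3 without passing the test (2.53 ± 0.40, adjusted p = 0.0637). The double-stranded RNA receptor gene Tlr3 was lower by 0.97 ± 0.11. Ddx58, Psmb8 and Tlr3 missed the threshold without 14B3 replicate 1 or replicate 2 (0.236 to 0.499), and Ifi47 did too (0.117 and 0.236). Without 9A1 replicate 1 and without replicate 2 the interferon list gave 3 higher and 5 lower, and 3 and 8, and antigen presentation gave 2 and 2, and 4 and 4. Without either 14B3 array antigen presentation gave 1 and 0, and interferon response gave 0 and 1 without replicate 1 and 0 without replicate 2.

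Transport and remaining lists added few named genes. Over all genes tested 1.11% were called higher and 0.724% lower. Of 45 transporters of liver and gut 3 were higher and 0 lower, namely Slc10a2, Slc27a2 and Slc37a4, which carries glucose 6-phosphate into the endoplasmic reticulum and was higher by 0.99 ± 0.09. Without 9A1 replicate 1 that list gave 13 higher and 3 lower, without 9A1 replicate 2 it gave 11 and 3, and without either 14B3 array it gave 0, with Slc37a4 at adjusted p values of 0.165 and 0.175. Of 25 iron and folate genes Heph and Aco1 were the 2 called, both higher. Car12, a carbonic anhydrase induced by hypoxia, was the 1 call among 34 hypoxia and glycolysis genes (-1.31 ± 0.17, but -0.26 with its other probe set), and Eda2r, a p53 target, the 1 call among 28 cell cycle inhibitor and p53 genes (-1.24 ± 0.15). Both were lost without 14B3 replicate 1 or replicate 2 (0.131 to 0.288). The hypoxia list gave 11 higher and 2 lower without 9A1 replicate 1 and 0 and 5 without 9A1 replicate 2. Of 28 imprinted genes Grb10 was higher and Gatm lower. Limma called 0 keratins of 16, 0 ephrin genes of 15, 0 YAP targets of 20, 0 Wnt targets of 29, 0 Notch genes of 20, 0 stress genes of 33 and 0 progenitor genes of 22, and 3, 1, 4, 4, 2, 6 and 7 of these had an unadjusted p under 0.05, against 13.8% of all genes. Their medians lay between -0.20 and 0.13. Without 9A1 replicate 1 the stress list gave 2 higher and 7 lower and the YAP list 2 and 8.

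Division genes mostly had lower values in 9A1 without passing the test. Of 36 mitosis genes 1 had a positive difference and 10 were lower by at least 2-fold, the median was -0.63 against -0.01 over all genes, and limma called 0, with 12 at an unadjusted p under 0.05 (13.8% of all genes). Top2a, the topoisomerase of dividing cells, lay at 7.54 and 5.38 in 9A1 and at 8.39 and 7.67 in 14B3 (adjusted p = 0.450). The ubiquitin-conjugating gene Ube2c lay at 8.01 and 5.76 in 9A1 and at 8.95 and 8.68 in 14B3 (0.351). The proliferation antigen gene Mki67 lay at 7.38 and 5.60 in 9A1 and at 8.03 and 7.19 in 14B3 (0.539). In all 3 genes 9A1 replicate 2 was lowest and 9A1 replicate 1 lay below both 14B3 arrays, except for Mki67, where it lay between them. The median difference between 9A1 replicates 1 and 2 over the list was 0.77, and 26 genes were called lower without 9A1 replicate 1 and 4 without 9A1 replicate 2. Of 37 DNA replication genes 7 had a positive difference and limma called 0, with 4 at an unadjusted p under 0.05, a share under the 13.8% of all genes, and a median of -0.24, and 13 were lower without 9A1 replicate 1 and 1 without 9A1 replicate 2. Of 20 cholesterol synthesis genes 4 were positive and limma called 0, with 5 at an unadjusted p under 0.05 and a median of -0.26. Among these 1 was called higher without 9A1 replicate 1 and 7 lower without 9A1 replicate 2.

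Markers of other liver cells gave 1 call or 0 per list, where 1.84% of all genes tested were called. Of 19 tested blood cell markers 1 was called, Csf1r, the receptor of macrophage growth factor, which lay at 11.99 and 12.02 in 9A1 and at 9.53 and 9.84 in 14B3 (2.32 ± 0.13, adjusted p = 0.00479), with 1.68 to 2.37 from its other probe sets. The other 18 differed by -0.10 to 0.21, and the defining markers Ptprc and Hba-a1 did not pass the filter. The sum of log2 levels over the list, which is no amount of RNA, was 115.9 and 120.6 in 9A1 and 114.3 and 114.8 in 14B3. Of 16 endothelial markers Sox17 was the 1 called, while the endothelial receptor gene Kdr differed by 0.24 ± 0.15, the cadherin Cdh5 by -0.53 ± 0.11, and Pecam1 did not pass the filter. Ecscr, an endothelial surface gene named after its value was seen, was lower by 2.70 ± 0.23. The endothelial sums of log2 levels were 95.96 and 98.73 in 9A1 and 102.2 and 102.0 in 14B3. They include Sox17, which alone differed by -4.15, while the median difference of the list was 0.05. Of 15 stellate cell and fibroblast markers 0 were called in limma, also with any 1 array left out (2 had an unadjusted p under 0.05), and their sums lay between 89.38 and 91.44 on the 4 arrays. Csf1r, Sox17 and Ecscr passed with any 1 array left out.

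**Figure D4:**
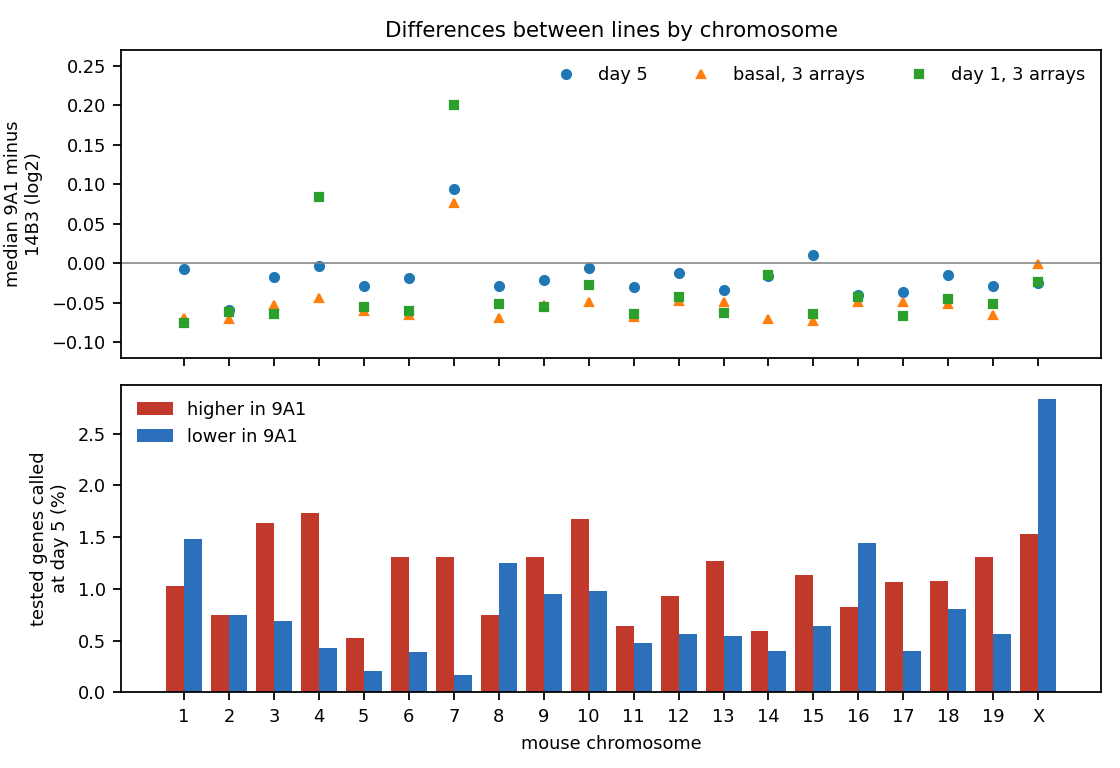
Top, median difference (log2) between 9A1 and 14B3 over the tested genes of each autosome and the X chromosome at day 5, in basal culture without the array labelled 9A1 replicate 1 and at day 1 without the array labelled 9A1 replicate 2. Bottom, percent of tested genes called higher (left bars) and lower (right bars) in 9A1 at day 5. Chromosome 7 lies highest of the autosomes in all 3 cultures, and the X chromosome has the largest share of lower genes (2.83%).

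Chromosome 7 stood above the other autosomes as a whole. The median difference of its 1218 tested genes was 0.094, and 70.8% were positive, whereas the medians of the other 18 autosomes lay between -0.059 and 0.00972 with 37.9% to 52.1% positive. All 15 stretches of 10 Mb along it had a positive median, from 0.055 to 0.172. On chromosome 7 1.48% of genes were called, within the 0.734% to 2.65% of the other autosomes. The day 5 median stayed above those of the other autosomes with any 1 array left out, from 0.0636 to 0.131, and was 0.0884 after median centring and 0.109 after quantile normalisation. In basal culture the median was 0.0758 without the array labelled 9A1 replicate 1, and 0.057 with it. At day 1 it was 0.2 without the array labelled 9A1 replicate 2, and 0.147 with it, and the next autosome was chromosome 4 (0.0835 without that array and 0.028 with it). DNA copy number was not measured and its part was not tested.

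Among neighbouring tested genes, 15 pairs had both genes called, where 1.84% of all genes tested were called. The number of such pairs under a random order was not worked out. Some of the pairs share a gene, as in the run below, and some are of overlapping genes. On chromosome 4 a run of 5 adjacent genes was higher in 9A1 by similar amounts, namely Aco1, the iron-sensing aconitase (1.03 ± 0.09, with 0.31 to 1.50 from its other probe sets), Ddx58 (1.03 ± 0.13), Topors (1.08 ± 0.13), Smim27 (1.02 ± 0.11) and Ndufb6 (0.85 ± 0.09), a subunit of respiratory complex I. The run reaches from 40143265 to 40279421 in GRCm38. Each of the 5 missed the threshold without 14B3 replicate 1 or replicate 2 (adjusted p from 0.138 to 0.317). Pnliprp1 and Pnliprp2, pancreatic lipase relatives 15554 bases apart on chromosome 19, were higher by 1.19 ± 0.16 and 3.49 ± 0.43 and were also lost without either 14B3 array (0.0825 to 0.393). The steroid-metabolising genes Akr1c14 and Akr1c18 on chromosome 13 differed in opposite directions, by 1.59 ± 0.10 and -1.13 ± 0.12, and were lost without either 14B3 array (0.0732 to 0.356). Probe sets of this family can hybridise with relatives. Nnt, the mitochondrial transhydrogenase that is partly deleted in C57BL/6J mice, lay at 10.84 and 10.86 in 9A1 and at 10.18 and 10.10 in 14B3 (0.71 ± 0.09, adjusted p = 0.0388). It lies on chromosome 13 from 119335527 to 119409257, ahead of Tmem267 from 119488086 to 119610459. The call was lost without 14B3 replicate 1 (0.281) or replicate 2 (0.425). Topors, Smim27, Ndufb6 and the genes after them are named for their position, after their values were seen. Which parental alleles each line carries is not given in the labels, and the part of probe mismatches to such alleles was not tested.

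Some of the day 5 differences were present in every culture and others were larger at day 5 by test. With all 12 arrays, limma called 6 genes for a difference at day 5 minus that in basal culture (0.0395% of genes tested) and 9 for day 5 minus day 1 (0.0592%). Without the arrays labelled basal 9A1 replicate 1 and day 1 9A1 replicate 2 the counts were 138 (0.908%) and 203 (1.34%). That fit keeps 1 array of 9A1 in each earlier culture, which is assumed to vary like the other groups. In it, 358 genes (2.36%) were called between the lines in basal culture and 762 (5.01%) at day 1. Of the 279 genes of day 5, 89 were called the same way in basal culture, which is 31.9% of the day 5 genes and 24.9% of the basal ones, and 121 at day 1, which is 43.4% and 15.9%. In both cultures 81 were called the same way. With all 12 arrays limma called 4 genes in basal culture (0.0263%) and 0 at day 1 (0%), with 1030 and 806 at an unadjusted p under 0.05, and 0 of the 279 were called the same way in either culture, so the overlaps rest on leaving out the 2 arrays.

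Ifi202b, Tmem267, Acaa1b and Pon3 had mean differences of the same sign in every culture, with and without the 2 arrays. In the fit without the 2 arrays Ifi202b differed by 6.51 in basal culture and 6.93 at day 1, close to its day 5 value. The arrays left out had Ifi202b levels of 4.65 and 4.86, so leaving them out favoured a difference as large as at day 5. Acaa1b differed by -4.30 and -6.98 and Pon3 by -3.38 and -3.82. With all arrays the basal and day 1 differences were smaller, at 3.18 and 3.48 for Ifi202b, 2.63 and 2.47 for Tmem267, -1.22 and -4.10 for Acaa1b and -2.12 and -2.32 for Pon3. Neither test of a change called these 4 genes, with the lowest adjusted p at 0.126 for Acaa1b against basal culture.

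Several gut genes had differences that were larger at day 5. The 279 genes were picked on the same day 5 arrays, which favours larger differences at day 5 than in the earlier cultures. The values given first come from the fit without the 2 arrays, which keeps 1 array of 9A1 in each earlier culture. Enpep differed by 0.19 in basal culture and by 1.61 at day 1, and its day 5 difference exceeded these by 6.67 ± 0.35 and 5.24 ± 0.35. Guca2a differed by -0.42 and -0.91 before day 5, Guca2b by 0.11 and -0.26, Lct by -0.24 and -0.32 and Mep1a by 0.38 and 0.28. H2-Q2 and Heph differed earlier by little in that fit, at -0.01 and 0.11 and at -0.06 and 0.17. Among genes lower in 9A1, Nepn differed by -0.16 and -0.07 before day 5 and Gstt2 by -0.03 and -0.50, while Mndal differed by -2.28 in basal culture and -4.05 at day 1. With all arrays the earlier differences moved, and several turned sign. In basal culture they became 2.70 for Nepn, 1.92 for Gstt2, 1.43 for Guca2a, 1.16 for Enpep, 1.02 for Heph, 0.69 for Mep1a, 0.57 for Guca2b, 0.29 for Lct, 0.05 for H2-Q2 and -0.46 for Mndal. At day 1 they became -0.12 for Nepn, -0.16 for Gstt2, -0.53 for Guca2a, 0.67 for Enpep, 0.23 for Heph, 0.16 for Mep1a, -0.11 for Guca2b, -0.01 for Lct, 0.09 for H2-Q2 and -1.91 for Mndal. With all 12 arrays, of these 10 genes H2-Q2 and Mep1a were called for both changes and Guca2b for that since day 1 (adjusted p = 0.0493), and the other 7 for neither.

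**Figure D5:**
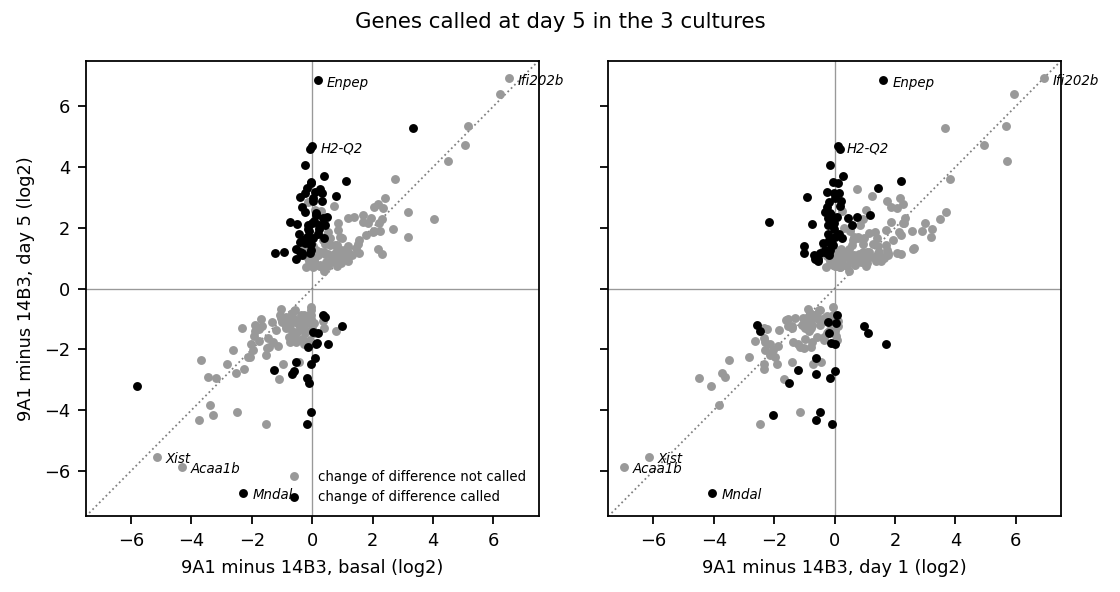
Difference between 9A1 and 14B3 (log2) of the 279 called genes at day 5 (vertical axis) against that in basal culture (left) and at day 1 (right), in the fit without the 2 arrays that went against their labels. Genes on the dotted line differ alike in both cultures, as Ifi202b does, and black points, such as Enpep, are genes whose change of difference was called.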

How the data were processed

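The deposited log2 values come, per the submitters' processing notes, from RMA run under R 2.3.1. RMA subtracts background and gives the arrays 1 distribution, so differences in total RNA are not seen. Of 45101 probe sets, the platform annotation gave 34945 a single gene, 932 several and 9160 none, 64 were controls, and 34741 had a RefSeq position (GRCm38.p6). Of 18193 genes 9010 had several probe sets, and the one with the highest mean over the 4 day 5 arrays stood for the gene. Genes that reached a level of 5 on 2 or more of the 4 arrays were tested (15199) in R 4.3.3 with limma 3.58.1 (lmFit, eBayes with a variance trend), with Benjamini-Hochberg adjusted p under 0.05 over all of them. Changes between cultures used 1 fit of all 12 arrays. The fits were also run on simulated data with independent normal errors and no arrays against their labels. Those settings differ from these arrays, so no conclusion is drawn from them.

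The 43 gene lists (1291 genes, 1183 on the array and 4 of them by an older symbol, 1073 tested) and the members were chosen with earlier results of these data known, so lists are described by counts and medians with no test. Named are, by rule, the 12 largest called differences each way without overlap, the 3 largest called members of each list with 1 on the other side, all of a marker panel and of the Y-linked list with Xist, and the 3 largest called changes each way per culture test. All other genes in the text were chosen after their values were seen. Whether replicate numbers pair the arrays is not stated. The correlation of their deviations was 0.128, which cannot settle this with 2 pairs. Replicate numbers were not used as a block in the main test, and with such a block 421 genes were called. Alternatives changed the filter, probe sets, scaling, variance model, arrays and threshold, and left out each array.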

Additional observations from a re-analysis of the deposited data

Results flagged for a closer look

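A test of the difference itself, over all 12 arrays in limma, found that the line difference changed between cultures for several named genes. H2-Q2 differed by 4.66 ± 0.25 more at day 5 than in basal culture (adjusted p = 0.000223) and by 4.62 ± 0.25 more than at day 1 (0.000239), with all 8 earlier arrays between 3.29 and 3.60, under the floor. Mfsd4b1, a membrane transporter relative, differed by 3.15 ± 0.34 more than in basal culture (0.0243), and Mylk3, a myosin light chain kinase, by 3.07 ± 0.25 more (0.00505). Mep1a differed by 3.55 ± 0.34 more than at day 1 (0.00814) and Ms4a6b by 4.05 ± 0.53 more (0.0493). The 8 earlier arrays lay near or under the floor also for Mfsd4b1 (4.25 to 5.01), Mylk3 (4.86 to 5.43) and Ms4a6b (4.68 to 6.01). Background thus limits their earlier differences and keeps the spread small. Enpep changed by more since basal culture, 5.70 ± 0.95, but with a wider spread and was not called (0.142). These tests include the 2 arrays that went against their labels, and without them the changes were 4.72 and 4.59 for H2-Q2, 3.52 for Mfsd4b1, 3.05 for Mylk3, 3.44 for Mep1a and 4.23 for Ms4a6b.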

How the results depend on the processing

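The count of 279 genes moved to 422 with every probe set on its own, 421 with a replicate block, 72 at an adjusted p under 0.01, 37 with all 12 arrays in the fit (35 higher and 2 lower) and 567 in the same fit without the 2 arrays that went against their labels, which was added after seeing the data. Leaving out 1 array gave 39 to 2012. Of the 68 named genes that were called, all kept their sign in every setting that gave them a value, and 60 remained called with the mean of all probe sets of a gene, where 9 moved by over 1.5-fold, 14 with all 12 arrays, 30 without 14B3 replicate 1 and 28 without 14B3 replicate 2. The 6 genes called for a change since basal culture became 15 with array weights, 138 without the 2 arrays, 2 with only the cultures compared, 4 with a replicate block and 1 to 689 with 1 array left out, the highest without basal 9A1 replicate 2. The 9 genes called for a change since day 1 became 203 without the 2 arrays, 5 with a replicate block and 1 to 199 with 1 array left out, the highest without day 1 9A1 replicate 1. Among uncalled genes, Cd24a turned to -0.022 with the mean of probe sets and -0.13 with every probe set, and Krt19 to 0.025 after quantile normalisation. With 1 array left out, differences of uncalled genes ranged from -0.43 to 1.54 for Afp, -0.94 to 1.39 for Alb, -0.94 to 1.03 for Cd24a, -0.11 to 1.69 for Cd44, -0.51 to 0.21 for Cdx2, -0.14 to 0.22 for Epcam, -0.17 to 0.16 for Krt19, -0.024 to 1.48 for Sox9, -0.68 to 0.15 for Ttr and -0.049 to 0.30 for Usp9y. For these genes the cause was not tested. Signal near the floor of 5 limits the size of differences there.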

Other observations

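Several transport and enzyme genes outside the lists above also differed and are named after their values were seen. Slc6a20a, a transporter of proline in gut and kidney brush borders, lay at 11.45 and 11.22 in 9A1 and at 8.28 and 8.12 in 14B3 (3.14 ± 0.13, adjusted p = 0.00260). Slc5a8, which takes up short chain fatty acids, lay at 7.76 and 8.17 in 9A1 and at 4.88 and 4.75 in 14B3, under the floor (3.15 ± 0.18, adjusted p = 0.00506). Dpep1, a dipeptidase of the brush border, was higher by 2.86 ± 0.32 and Nox4, a source of hydrogen peroxide, by 2.73 ± 0.35. Aqp8, a water channel of hepatocytes and colon, lay at 6.62 and 6.74 in 9A1 and at 9.73 and 9.60 in 14B3 (-2.99 ± 0.12, adjusted p = 0.00260). Tmprss2, a surface protease, was lower by 2.93 ± 0.22 and Srgn, the proteoglycan serglycin, by 2.95 ± 0.32. Slc6a20a and Aqp8 passed with any 1 array left out. Without 14B3 replicate 2 Slc5a8 (0.0565) and Tmprss2 (0.0684) missed the threshold, and Dpep1, Nox4 and Srgn missed it without 14B3 replicate 1 or replicate 2 (0.0614 to 0.211).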
